A study of Mus musculus with 6 samples.

Results

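Nab2, a co-repressor of the EGR transcription factors, and the immediate early genes that stand around it in the same response were followed in mouse kidney. The genes were named in advance as Nab2, Nab1, Egr1, Fos, Jun, Junb, Jund, Ier2, Klf6 and Btg2, and the deposited table has a row for 6 of these 10 out of 7373 rows in all: Nab2, Nab1, Jun, Junb, Jund and Ier2. Egr1, Fos, Klf6 and Btg2 were not analysed here. The members were selected on the difference between transgenic and control kidneys, Nab2 because its level was higher in all 3 transgenic kidneys, so their values in that contrast are a description and carry no test.

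RNA came from frozen whole kidney of adult males of the inbred strain FVB/N. In 3 of the libraries the mice carried a transgene for the R120G mutant of CryAB, which belongs to the small heat shock proteins, and overexpressed it. The α-myosin heavy chain promoter drives it in cardiomyocytes, so its intended site is the heart and not the kidney, and these mice were taken before heart failure set in. The other 3 libraries came from control mice of the same sex and age, for which the labels used here give neither an age in numbers nor a further genotype.

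Immediate early genes are switched on within minutes of a stimulus, without new protein synthesis, by factors that already wait in the nucleus, such as SRF with its ETS partners below the ERK cascade. Many encode transcription factors: EGR1 is a zinc finger protein that binds GC-rich sites, and FOS and JUN proteins pair to form AP-1. NAB1 and NAB2 bind EGR proteins and bring in the NuRD chromatin complex, which silences their targets, and Nab2 is itself induced by EGR proteins, which closes a negative feedback loop. In the kidney such genes are known for their quick rise after ischemia and reperfusion; the kidneys described here were taken before any such injury.

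Libraries held between 23.5 and 47.6 M estimated counts. Control 3 stood apart from the other 5 libraries: each of 178 X and Y genes was at 0 there, and it lay at 23.7 on a first principal component where the others lay between -10.9 and 1.03. Genes of X and Y were therefore left out of all fits, and none of the 6 genes lies on them. The tissue carried its defining markers: Lrp2 of the proximal tubule, Umod of the thick ascending limb and Aqp2 of the collecting duct were all high, while none of 6 heart muscle genes has a row. Cryab, the endogenous gene of the overexpressed protein, stood between 210.1 and 292 CPM (counts scaled to the library's total) in controls and between 178 and 194 in transgenic kidneys. Of 7194 genes tested with the edgeR quasi-likelihood test, 1 passed an adjusted p of 0.05 (0.0139%), the renin gene Ren1, and that call was lost without control 1 or without any of the 3 transgenic libraries.

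Since the co-repressor pair was at opposite ends of the set, the 250 bases upstream of the RefSeq start are shown for both, and for Jun as the member that varied most between kidneys. RefSeq promoters of GRCm38.p6 (mm10) were matched for 5 of the 6 genes. Capitals mark a match to 1 of 7 motifs, searched on both strands: the EGR consensus GCGTGGGCG, the EGR variant GCGGGGGCG, the AP-1 site TGANTCA, the CRE TGACGTCA, the AP-1-like TGACATCA, the CArG box bound by SRF, and the TATA box TATAAA. Nab2 is read on the minus strand from chr10:127666704-127666953, Nab1 on the minus strand from chr1:52500449-52500698, and Jun on the minus strand from chr4:95052223-95052472.
Nab2: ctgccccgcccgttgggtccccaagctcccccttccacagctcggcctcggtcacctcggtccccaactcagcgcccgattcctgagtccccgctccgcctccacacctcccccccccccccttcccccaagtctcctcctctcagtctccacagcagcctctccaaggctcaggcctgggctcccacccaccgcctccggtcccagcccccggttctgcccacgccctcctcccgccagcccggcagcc
Nab1: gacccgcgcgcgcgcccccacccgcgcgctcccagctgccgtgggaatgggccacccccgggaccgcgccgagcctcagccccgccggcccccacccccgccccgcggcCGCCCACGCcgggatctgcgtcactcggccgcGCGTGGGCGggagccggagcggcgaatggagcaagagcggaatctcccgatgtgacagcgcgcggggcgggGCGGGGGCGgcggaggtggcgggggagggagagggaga
Jun: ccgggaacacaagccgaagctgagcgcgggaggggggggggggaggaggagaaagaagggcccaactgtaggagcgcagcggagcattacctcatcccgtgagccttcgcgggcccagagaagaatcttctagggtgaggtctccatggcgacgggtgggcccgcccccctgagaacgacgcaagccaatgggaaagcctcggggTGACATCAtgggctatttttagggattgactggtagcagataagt
The Nab1 window holds 2 matches to the EGR consensus, 1 on each strand, which begin 141 and 109 bases upstream of the start, and 1 match to the EGR variant that begins 38 bases upstream. Of 32851 promoter windows of the same length, 0.536% hold the consensus and 2.57% the variant; over the 7215 windows of genes in the table the shares are 0.984% and 4.67%. The Nab2 window holds no exact match to any of the 7 motifs, and neither do those of Junb and Jund. Sequences 1 base off a motif were not searched for, so their absence is not shown. The share of G and C was 72.8% in the Nab2 window, 80.8% in that of Nab1 and 61.2% in that of Jun. The Jun window holds the AP-1-like TGACATCA 45 bases upstream, a motif in 2.93% of all windows and 1.26% of those of genes in the table. These matches describe the letters in the window and not a bound site.

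Nab2 (gene ID 17937; chromosome 10, 127660918 to 127666703, mm10, minus strand) stood at 16.9, 19.2 and 17.2 CPM in control kidneys 1, 2 and 3 and, in transgenic kidneys 1, 2 and 3, at 25.7, 23.6 and 22.9 CPM. All 3 transgenic kidneys lay above all 3 controls. The control mean was 17.8 ± 1.26 CPM (SD, n = 3) and the transgenic mean 24.1 ± 1.47 CPM (SD, n = 3), which is 1.35-fold higher, or 0.44 ± 0.11 (SE) on the log2 scale. The difference in the means was larger than the spread within either group, which the choice of Nab2 favours, so nothing is read from it. Without control 3 the log2 fold change was 0.41. Each value rests on 460 to 800 estimated counts.

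Nab1 (gene ID 17936; chromosome 1, 52455849 to 52500712), which encodes the other co-repressor, was the 1 member that lay lower. It stood at 38.4, 40.1 and 45.3 CPM in the controls, against 33.2, 34.0 and 38.8 CPM with the transgene. The groups overlapped, since transgenic kidney 3 lay above control 1. The means were 41.3 ± 3.58 CPM (SD, n = 3) and 35.4 ± 3.03 (SD, n = 3), a log2 fold change of -0.22 ± 0.10 (SE), and -0.15 without control 3.

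The balance of the pair can be read within each library, free of the library's depth, as the ratio of CPM per kb of transcript. Nab2 over Nab1 was 0.662, 0.72 and 0.57 in the control kidneys, against 1.16, 1.04 and 0.886 in the transgenic ones. Nab1 was thus the more abundant of the pair per kb in every control, and Nab2 in transgenic kidneys 1 and 2. Which of the pair is higher rests on the transcript lengths used, 2582 bases for Nab2 and 3874 for Nab1. In CPM, without division by length, Nab1 was the higher in every kidney. The mean ratio was 0.651 ± 0.0756 (SD, n = 3) for controls and was 1.03 ± 0.137 (SD, n = 3) with the transgene. Since Nab2 was chosen for its higher level in all 3 transgenic kidneys, the separation of this ratio follows in part from that choice.

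**Figure D1:**
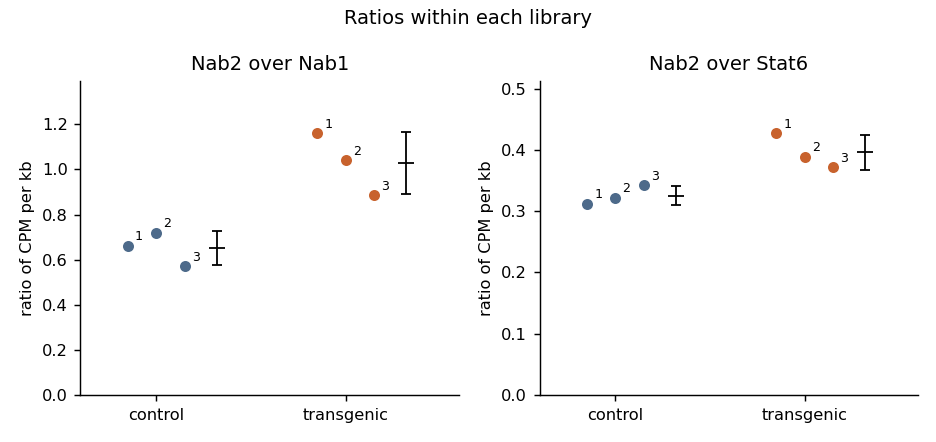
Ratio of Nab2 to Nab1 (left) and of Nab2 to Stat6 (right) in each library, in CPM per kb of the longest GENCODE transcript; numbered points are libraries, and bars give the mean and SD of 3. Nab2 over Nab1 lay at or below 0.72 in controls and at or above 0.886 in transgenic kidneys, which the choice of Nab2 for this contrast favours.

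Nab2 shares its 3′ end with Stat6, the transcription factor of interleukin-4 signalling, which runs on the opposite strand. The 2 gene intervals overlap by 70 bases (chromosome 10, 127660918 to 127660987), which is 2.71% of the length of the longest Nab2 transcript, and reads there cannot be assigned if the authors' counting ignored the strand, which the sources used here do not state. Stat6 was the more abundant gene, at 79.4, 87.3 and 73.4 CPM in controls and 88.0, 88.7 and 89.95 in transgenic kidneys (log2 fold change 0.15 ± 0.10, SE; adjusted p = 0.997, edgeR). Its groups did not overlap either, at a log2 fold change of 0.15 against 0.44 in Nab2. Nab2 over Stat6, per kb, was 0.312, 0.322 and 0.342 in controls and 0.427, 0.389 and 0.372 in transgenic kidneys. Of the other members, Junb has 1 listed gene within 5 kb, Prdx2, at a log2 fold change of -0.01 ± 0.12 (SE), and the rest have none.

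Junb (gene ID 16477; chromosome 8, 84976909 to 84978748), an AP-1 subunit that often restrains JUN, ran in the same order as Nab2 among the transgenic kidneys. It stood at 13.8, 16.8 and 17.5 CPM in the controls, against 21.0, 20.6 and 18.3 CPM in the transgenic ones. The groups did not overlap, but control 3 and transgenic kidney 3 were close. The means were 16.0 ± 1.94 CPM (SD, n = 3) and 19.98 ± 1.46 (SD, n = 3), 1.24-fold apart (0.31 ± 0.13, SE, on the log2 scale).

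Jun (gene ID 16476; chromosome 4, 95049036 to 95052222), the founding AP-1 subunit, did not separate the groups. It stood at 17.1, 23.4 and 22.2 CPM in the controls, against 27.1, 15.2 and 23.0 CPM in the transgenic ones. The highest and the lowest kidney were both transgenic, 1.79-fold apart. The log2 fold change was 0.06 ± 0.21 (SE), and its sign was that of single libraries: -0.06 without control 1, -0.13 without transgenic kidney 1 and 0.26 without transgenic kidney 2. Jun reached the authors' minimum level in 4 of the 6 kidneys, while each of the other 5 genes reached it in all 6.

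Jund (gene ID 16478; chromosome 8, 70697739 to 70700616), the AP-1 subunit made in resting cells, was the most abundant of the 6. It stood at 129.7, 143 and 109.9 CPM in the controls, against 158, 124 and 145 CPM in the transgenic ones, so the groups overlapped. The log2 fold change of 0.16 ± 0.13 (SE) fell to 0.06 without control 3 and 0.08 without transgenic kidney 1, and was 0.25 without control 2 or without transgenic kidney 2. Ier2 (gene ID 15936; chromosome 8, 84661331 to 84662852), a small nuclear early response gene, stood at 18.3, 24.4 and 21.0 CPM in the controls, against 20.7, 26.9 and 24.9 CPM in the transgenic ones. Its groups overlapped too, with a log2 fold change of 0.19 ± 0.15 (SE) that was 0.09 without control 1, 0.10 without transgenic kidney 2 and 0.30 without control 2.

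**Figure D2:**
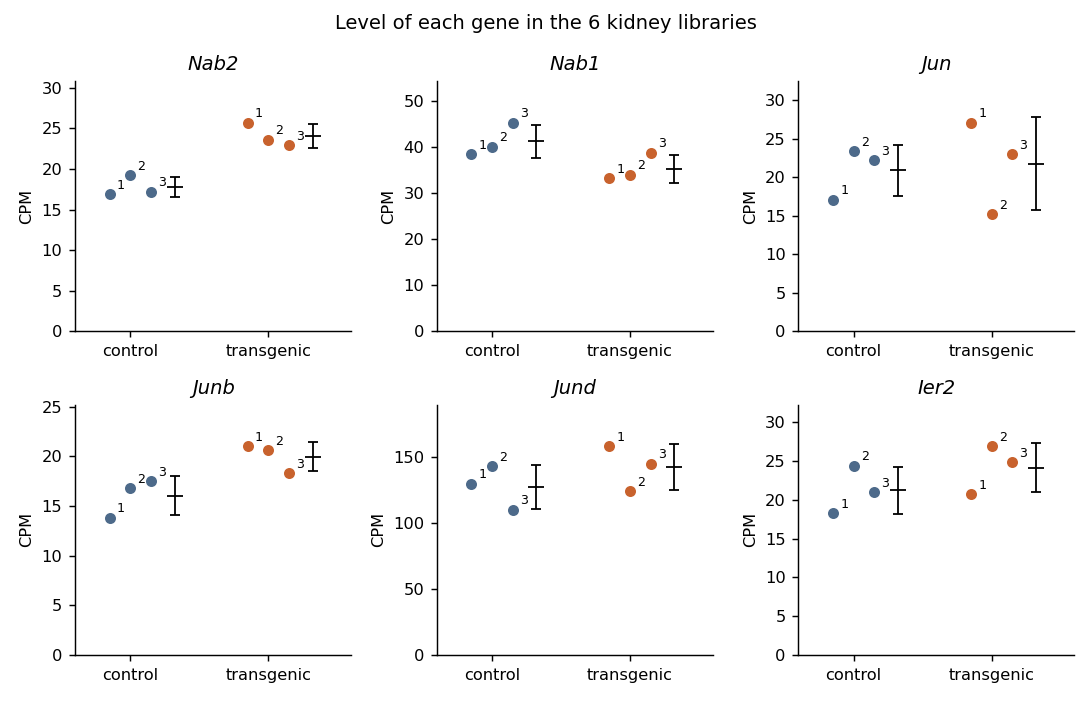
CPM of the 6 genes in each kidney library, with libraries numbered and the mean and SD of 3 at the right of each group; every axis starts at 0. Nab2 and Junb are the genes whose groups do not overlap, and the transgenic kidneys of Jun span 15.2 to 27.1 CPM.

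Across the 6 genes, 5 lay higher and 1 lower in transgenic kidneys. Their median log2 fold change was 0.17, where 50.3% of all genes lay higher and the median of all genes was 0.00. Groups without overlap were seen in 2 of 6, both higher, where 2.96% of all genes lay higher and 3.02% lower without overlap (5.98% together). None of the 6 was called by edgeR, by DESeq2 or by limma voom, and 2 had an unadjusted p under 0.05 with edgeR, where 1.82% of all genes did. Since the same contrast chose the genes, nothing is read from these counts. The 3 Jun genes and Ier2 did not share 1 order of kidneys: control 1 was lowest in Nab2, Junb and Ier2, transgenic kidney 2 in Jun and control 3 in Jund.

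Per kb of transcript, which allows levels of different genes to be compared, Jund led in the controls with 76.4 ± 9.98 CPM per kb (SD, n = 3). Ier2 followed with 13.9 ± 2.01, Nab1 with 10.7 ± 0.923, Junb with 8.87 ± 1.07, Nab2 with 6.89 ± 0.487 and Jun with 6.55 ± 1.06 CPM per kb. The values of Nab2 and Jun overlapped, and those of the other neighbours in this order did not. In the transgenic kidneys the order was Jund at 85.1 ± 10.2, Ier2 at 15.9 ± 2.10, Junb at 11.0 ± 0.807, Nab2 at 9.32 ± 0.571, Nab1 at 9.13 ± 0.782 and Jun at 6.83 ± 1.90 CPM per kb. Here Nab2 and Nab1 overlapped, and Nab2 had moved from just above Jun to the level of Nab1. Jund made up between 79.8% and 85.7% of the level of the 3 Jun genes in every kidney. This share and the orders above depend on the transcript length used for each gene, which was 1668 bases for Jund.

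The spread between kidneys of the same group is given as a description. A gene chosen for groups that do not overlap, as Nab2 was, tends to have a low spread, so nothing is read from its value. As the pooled within-group SD of log2(CPM + 0.5), it was 0.34 in Jun, which lies at percentile 96.1 of all genes tested. It was 0.20 in Ier2 (percentile 75.4), 0.18 in Jund (71.0), 0.14 in Junb (54.4), 0.12 in Nab1 (41.0) and 0.09 in Nab2 (23.2), against a median of 0.14 over all genes. Without transgenic kidney 2 the SD of Jun fell to 0.22 (percentile 77.6), and without control 3 that of Nab2 was 0.10 (percentile 50.0).

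Other early response genes also varied between kidneys of 1 group. A list of 39 other immediate early genes has 19 with a row, and their median within-group SD was 0.31, with 17 of 19 above the median of all genes and 10 above its percentile 90. Leading the list were Plk3, a stress-responsive kinase (SD 0.80), Gadd45g, a growth arrest gene (0.62), Cebpd, an inflammatory transcription factor (0.54), and Zfp36, which destabilises AU-rich mRNAs (0.44). Plk3 stood at 74.0, 105 and 34.2 CPM in the controls, against 120.4, 40.5 and 68.0 CPM in the transgenic ones, a 3.52-fold range from control 3 to transgenic kidney 1. At the other end, Mcl1, which blocks apoptosis (SD 0.05), and Ets2, an ETS transcription factor (0.06), were nearly constant. Control 3 was the lowest library in 8 of the 19, but without it the median SD was 0.24 against 0.10 for all genes.

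**Figure D3:**
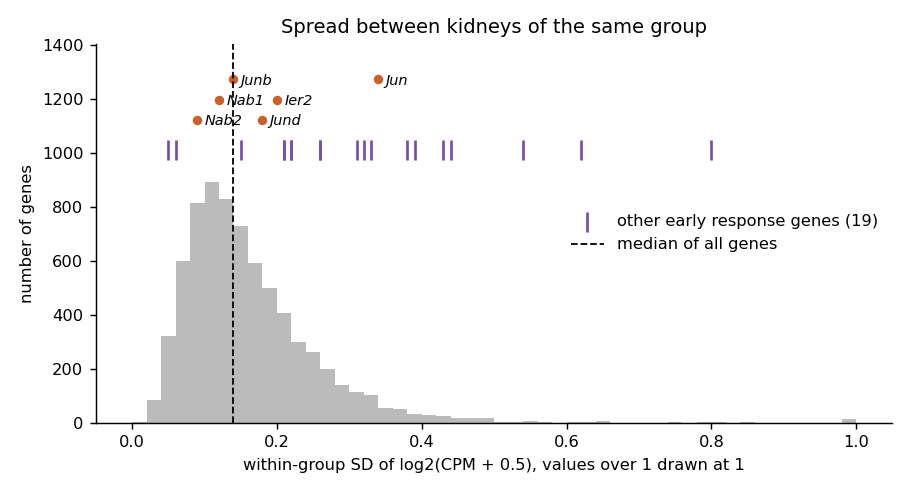
Histogram of the pooled within-group SD of log2(CPM + 0.5) over all 7194 genes, with the 6 genes (orange points) and 19 other early response genes (purple ticks) placed above it at their own SD; height above the bars has no meaning. Jun lies at 0.34 and Nab2 at 0.09, on either side of the median of 0.14.

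In the difference between groups 12 of these 19 genes lay higher and 7 lower, from -0.29 to 0.32 on the log2 scale, and their median was 0.05. The median size of their change, sign aside, was 0.10, against 0.07 over all genes. None was called by edgeR, DESeq2 or limma voom. An unadjusted p under 0.05 with edgeR was seen in 1 of 19 (5.26%), where 1.82% of all genes had one. Groups without overlap were seen in 1 of 19, where 5.98% of all genes had such groups. Rhob, an early-induced small GTPase, was the 1 gene without overlap, at 81.0, 79.3 and 76.2 CPM in controls and 68.3, 54.0 and 70.6 in transgenic kidneys (log2 fold change -0.29 ± 0.12, SE; adjusted p = 0.997, edgeR). Sik1, a salt-inducible kinase, differed by 0.32 ± 0.17 (SE) and Zfp36 by 0.21 ± 0.26 (SE), both with overlap.

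**Figure D4:**
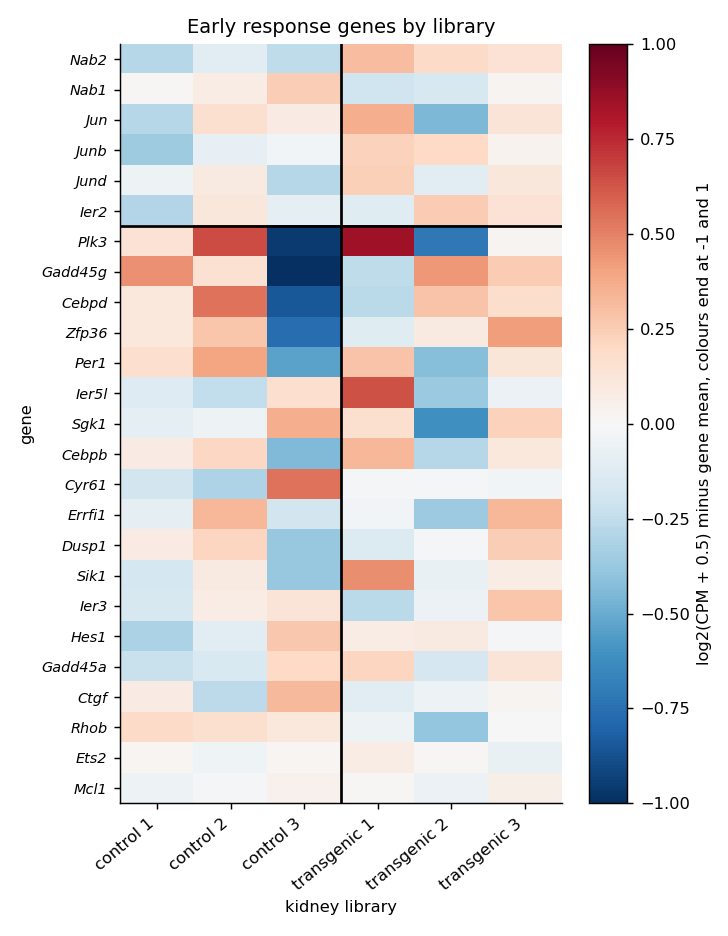
log2(CPM + 0.5) of the 6 genes (above the line) and 19 other early response genes (below, ordered by within-group SD) in each library, minus the gene's mean over the 6 libraries; red is above and blue below the mean. Among the top 6, Nab2 and Junb have all transgenic kidneys above all controls, and control 3 is the lowest library in 8 of the lower 19.

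Genes that EGR1 is known to drive gave 9 with a row out of 16, of which 6 lay higher and 3 lower. Their median log2 fold change was 0.14, and 0.13 without control 3. None was called by edgeR, DESeq2 or limma voom. An unadjusted p under 0.05 with edgeR was seen in 1 of 9, where 1.82% of all genes had one. Groups without overlap were seen in 2 of 9, both higher, where 2.96% of all genes lay higher without overlap. The list is short and was chosen with earlier results of these data known, so nothing is read from these counts. Vegfa, the endothelial growth factor, stood at 142, 175 and 145 CPM in the controls, against 217, 175 and 182 CPM in the transgenic ones (log2 fold change 0.32 ± 0.12, SE). Its groups barely cleared each other, since control 2 and transgenic kidney 2 round to the same level. Pdgfb, a growth factor for mesangial cells and pericytes, stood at 17.1, 19.0 and 16.7 CPM in the controls, against 19.7, 21.1 and 21.1 CPM in the transgenic ones (log2 fold change 0.23 ± 0.11, SE), without overlap. Trp53, which encodes p53, differed by 0.20 ± 0.16 (SE) with overlap.

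Among the signalling genes upstream, 11 of 15 tested genes of the ERK pathway and its nuclear factors lay higher, with a median log2 fold change of 0.05, and -0.01 without control 3. Rras, a small GTPase, was the 1 without overlap, at 20.5, 19.7 and 20.5 CPM in controls and 24.9, 24.8 and 25.2 in transgenic kidneys (log2 fold change 0.30 ± 0.09, SE). Over all genes 50.3% lay higher, and 5.98% had groups without overlap. Srf, the factor that binds CArG boxes in promoters, differed by 0.21 ± 0.15 (SE) with overlap. Of the 12 genes of the JNK and p38 pathway and AP-1 partners 7 lay higher, with a median of 0.02, and Maf, a large Maf factor, was farthest from 0 at -0.36 ± 0.21 (SE), followed by its small partners Mafg (0.17 ± 0.17, SE) and Mafk (0.11 ± 0.10, SE). Of 12 feedback inhibitors of ERK signalling only the phosphatase genes Dusp7 (0.14 ± 0.21, SE) and Dusp6 (-0.04 ± 0.18, SE) have a row.

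The NuRD subunits through which NAB proteins act were split evenly, 5 of 10 tested genes higher and 5 lower, with a median of 0.01. Farthest from 0 were Mta1 (0.22 ± 0.17, SE), the helicase gene Chd4 (0.15 ± 0.13, SE) and its relative Chd3 (-0.15 ± 0.16, SE). Of the KLF family 4 of 15 have a row, with Klf2 at -0.17 ± 0.15 (SE), Klf9 at -0.15 ± 0.10 (SE) and Klf15 at 0.01 ± 0.13 (SE). In the BTG and TOB family, anti-proliferative relatives of Btg2, 3 of 4 lay lower. The family's median was -0.14 on the log2 scale, and 0.02 without control 3. Btg1 lay lower without overlap, at 65.5, 73.5 and 72.8 CPM in controls and 65.4, 65.0 and 60.8 in transgenic kidneys (log2 fold change -0.15 ± 0.09, SE). Btg3 and Tob1 both differed by -0.14 with overlap. Among factors that set the decay of early transcripts, 4 of 10 lay higher, and farthest from 0 were Elavl1 (-0.16 ± 0.09, SE), Hnrnpd (0.15 ± 0.11, SE) and Zfp36l2 (-0.09 ± 0.12, SE).

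Over all 9 lists, 84 genes were tested, of which 47 lay higher and 37 lower. Their median log2 fold change was 0.02. None was called by edgeR, DESeq2 or limma voom, and 3 (3.57%) had an unadjusted p under 0.05 with edgeR, where 1.82% of all genes did. Groups without overlap were seen in 5 of the 84 (5.95%), which is the share found over all genes (5.98%).

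**Figure D5:**
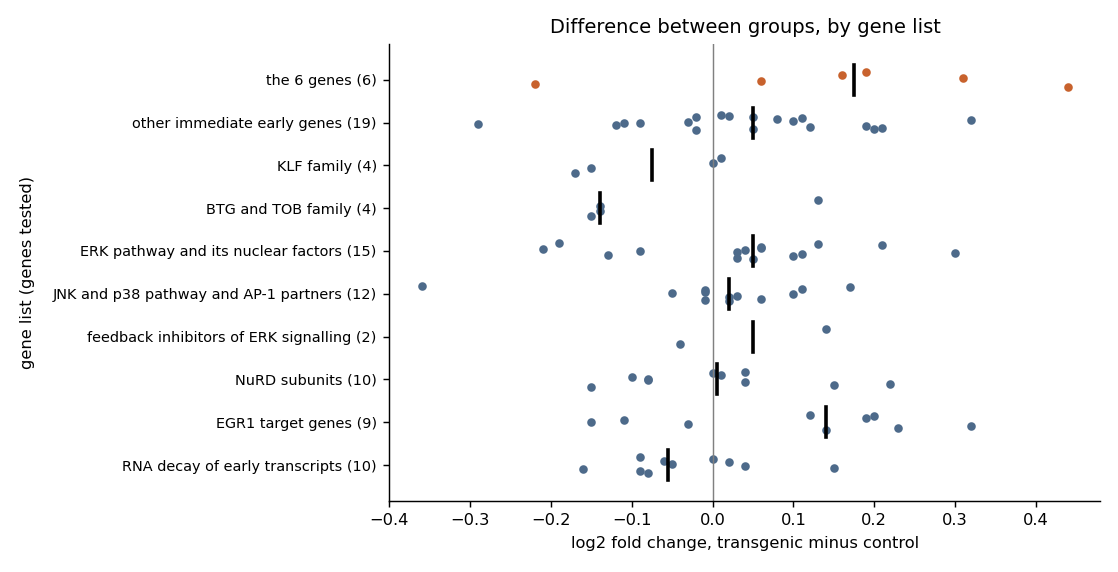
log2 fold change, transgenic minus control, of every tested gene of each list (points), with the list's median (black bar); the number of genes tested is in parentheses. The 6 genes, chosen with this contrast known, reach from -0.22 (Nab1) to 0.44 (Nab2), and the medians of the 9 lists lie between -0.14 (BTG and TOB family, 0.02 without control 3) and 0.14.

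Genes whose profile over the 6 libraries was most like that of Nab2 were sought among all others outside X and Y, by the root mean square difference of log2(CPM + 0.5) after centring each gene on its mean. The 5 nearest were Ttll4, a tubulin-glutamylating enzyme, and Epc1, of a histone acetyltransferase complex, both at 0.07, Acot2, a mitochondrial acyl-CoA thioesterase (0.073), Rhpn1 (0.075), and Tldc2 (0.08). Ttll4 stood at 22.1, 25.5 and 20.3 CPM in controls and 31.1, 28.6 and 26.6 in transgenic kidneys, and in all 5 the groups did not overlap, which the likeness to Nab2 fixes. Of the members, Junb was nearest at 0.115, with 20 genes nearer, and Nab1 farthest at 0.356, with 6400 genes nearer. The members were chosen with this contrast known, so nothing is read from the closeness of Junb.

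Whole kidney mixes many cell types, and in such libraries more cells of a type and more RNA per cell cannot be told apart. For some cell types every tested marker lay higher in transgenic kidneys, and for others every one lay lower. Few of them were without overlap as in Nab2. All 6 markers of the thick ascending limb, all 3 of red blood cells and the 2 of adipocytes lay lower, each with overlap. Of 7 macrophage and dendritic cell markers, 6 lay lower. Of 6 podocyte markers 3 have a row and all 3 lay higher, 1 of them without overlap between groups. Podxl, of the podocyte surface, and Clic5, which anchors its cytoskeleton, differed by 0.23 and 0.05 on the log2 scale. All 5 listed genes of renin cells and vascular smooth muscle, out of 8 in the list, lay higher, 2 of them without overlap. Their sum was 406 to 506 CPM against 831 to 953, mostly through Ren1. Over all genes 50.3% lay higher, and 2.96% lay higher without overlap. The marker lists are short and were chosen with earlier results of these data known, so nothing is read from their counts. The sums overlapped between groups for endothelium (341 to 426 against 337 to 351 CPM, 6 of 10 genes), for macrophages and dendritic cells (342 to 390.0 against 299 to 365, 7 of 10) and for the proximal tubule (62751 to 71119 against 61249 to 65861, 9 of 9). The part of these cell types in the level of Nab2 was not tested.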

How the data were processed

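RNA of 3 transgenic and 3 control kidneys was sequenced on an Illumina HiSeq 2500, per the labels. The genome build was mm10, per the submitters' processing notes; which aligner and counter were used is not given in the sources used here. Per the file headers, the authors kept genes where at least 2 of 6 samples had a value called NRPKM of at least 5. The deposited raw columns hold estimated counts, which were rounded to whole numbers here. The deposited normalized columns hold log2 values per gene, centred by the authors, and served 1 alternative. A further 12 columns of per-sample values match none of these samples and were not used. Of 7373 rows, 7356 matched the RefSeq gene table of GRCm38.p6 by gene ID.

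The groups were compared with the quasi-likelihood test of edgeR (4.0.16, under R 4.3.3), with no term but the group, on 7194 genes after leaving out the 178 of X and Y and filterByExpr (which removed 1), with TMM normalization, two-sided, Benjamini-Hochberg adjusted. SE is the log2 fold change over the square root of F. CPM uses TMM library sizes; CPM per kb divides by the longest transcript of GENCODE M21 basic. Alternatives used DESeq2 (1.42.0) and limma (3.58.1). Whether each library is a separate animal is not labelled, so p-values reflect only the spread among these libraries, and an exact permutation test of 3 against 3 cannot go below 0.1. The members and lists were chosen with earlier results of these data known. Named genes are each list's members that were called or whose groups did not overlap, the 3 farthest from 0, the 5 nearest to Nab2, and genes within 5 kb of a member; genes named for their spread (Plk3, Gadd45g, Cebpd, Zfp36, Mcl1, Ets2) and the cell type markers with values were chosen after their values were seen. The values of 2 such genes and the summed level of 1 marker list are not reported here. The likeness search for Egr1 and Fos could not be made, since neither was analysed here.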

Additional observations from a re-analysis of the deposited data

How the results depend on the processing

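The log2 fold change of Nab2 stayed between 0.39 and 0.50 over all 14 alternatives, and 5 of the 6 members lay higher in each except without control 1 and without transgenic kidney 1, where 4 did because Jun changed sign. These fits reuse the libraries in which the members were chosen, so they show how the values depend on processing and do not test the difference. The count of called genes, 1 of 7194, became 0 with genes of X and Y included and 0 with limma fitted to the log2 values of the authors, an alternative chosen after seeing the data, and 2 with DESeq2; leaving out 1 library gave 0 to 2. It was 1 with the other settings tried (DESeq2 size factors, limma voom with array weights, no filter, the stricter filter of 500 counts in 3 libraries, an adjusted p of 0.1, and the replicate number as a block). Of 70 values for the other 5 members, 1 moved by more than the spread between kidneys, Junb at 0.46 with limma voom and array weights; Jun was 0.31 there. Of 126 list medians 5 did so. With the replicate number as a block Nab2 was at 0.44. Libraries numbered 1 and those numbered 2 did not deviate together (r = 0.005 and 0.019 across genes), while those numbered 3 did in part (0.34). Control 1 correlated best with transgenic kidney 2 (0.415), so the replicate numbers were not taken as pairs. With 3 libraries a group, differences of the size seen in Jund or Ier2 are within the spread between kidneys.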
